A study of Mus musculus with 4 samples.

Results

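Mitosis and spindle genes encode the machinery that condenses chromosomes, attaches them to the spindle and splits the cell. The 51 genes described here were chosen by function, from cyclins and mitotic kinases to condensin subunits, and were found on the array by matching probe accessions to RefSeq transcripts. Of them, 50 had a named probe and 49 were measured well enough to test, out of 17016 named genes on the array and 13998 named genes tested. The condensin gene Ncapg had no named probe and was not analysed here. The checkpoint kinase gene Ttk had a probe that stood well above background in red on 1 DAPT array and on neither vehicle array, and was not tested.

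The samples were prostate spheres, a three-dimensional culture grown from basal epithelial cells sorted from adult FVB mice. One group was treated with 5 µM DAPT, an inhibitor of the γ-secretase protease that releases the active part of Notch receptors, and the other with vehicle (DMSO), with the medium replaced every 24 h in both. The question was how Notch signalling bears on the division and maturation of basal cells. There were 2 arrays per group, each carrying sphere RNA in the red dye and one common universal mouse reference RNA, a commercial pool of cell-line RNA, in the green dye. Whether the 2 arrays of a group stand for different cultures or mice is not in the labels, and the p-values therefore reflect no more than how these samples vary, a spread that may be technical. As a model of Notch loss the drug is broad, since γ-secretase also cleaves proteins other than Notch receptors.

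Entry into mitosis is driven by cyclin-dependent kinase 1 bound to A- and B-type cyclins, and Aurora and Polo kinases then build the spindle. The spindle checkpoint holds the cell until every kinetochore, the protein plate on the centromere, is attached, and the anaphase-promoting complex then removes cyclin B and securin so that the sister chromatids part. Most of these genes are transcribed in the G2 and M phases under the DREAM and B-MYB–FOXM1 complexes, which act through a short promoter element with the sequence TTTGAA, the cell cycle genes homology region, often beside CCAAT boxes bound by NF-Y. In prostate epithelium they serve as markers of dividing cells. In a bulk sample such as these spheres, fewer dividing cells and less of each RNA per dividing cell cannot be told apart.

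The promoters show what the members share apart from their function, and 4 are printed because they belong to members that changed and carry these elements in different arrangements. Each is the 120 bases before the gene's start, read 5′ to 3′ on the gene's strand, from RefSeq sequence of the build GRCm38.p6. Capitals mark TTTGAA and CCAAT on either strand, so that TTCAAA and ATTGG are the same elements read from the other strand.
Cdk1, chr10:69352913-69353032, minus strand: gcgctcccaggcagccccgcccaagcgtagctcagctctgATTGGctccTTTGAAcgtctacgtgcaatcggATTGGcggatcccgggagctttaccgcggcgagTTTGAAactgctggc
Cdc20, chr4:118437344-118437463, minus strand: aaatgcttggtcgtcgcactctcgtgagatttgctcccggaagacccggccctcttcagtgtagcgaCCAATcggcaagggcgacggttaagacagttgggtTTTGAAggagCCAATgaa
Top2a, chr11:99024190-99024309, minus strand: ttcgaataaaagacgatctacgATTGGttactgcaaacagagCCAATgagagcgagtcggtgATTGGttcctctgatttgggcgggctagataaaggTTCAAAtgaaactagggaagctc
Ccnb1, chr13:100786487-100786606, minus strand: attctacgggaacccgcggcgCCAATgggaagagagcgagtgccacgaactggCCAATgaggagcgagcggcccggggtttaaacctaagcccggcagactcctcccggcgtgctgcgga
In these stretches Cdk1 had 2 TTTGAA and 2 CCAAT elements, Cdc20 had 1 and 2, Top2a had 1 and 3, and Ccnb1 had 2 CCAAT elements and no TTTGAA.

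RefSeq promoters were at hand for 42 of the 51 genes, as 45 windows of 300 bases that run from 250 before to 50 after a start. TTTGAA, searched on both strands, was found in 32 of the 45 windows (71.1%), against 17.9% of all 32851 windows. CCAAT, also searched on both strands, was found in 34 of the 45 (75.6%), against 37.4% of all windows, and both elements together in 64.4%, against 6.95%. The elements do not overlap each other. Of the 40 TTTGAA matches in the member windows, 30 began between 60 bases before and 50 bases after the start. The median position of the 40 was 10 bases before it. The windows of Ect2, Prc1 and Bub3 came in overlapping pairs, so that sites shared by a pair were counted in each window. The share with TTTGAA was 68.8% in the 16 windows of members that rose with DAPT and 70.4% in the 27 windows of members that did not pass. In the 96 windows of other mitosis genes, a list described below, it was 39.6%, and in the 55 windows of DNA replication genes, which are transcribed earlier in the cycle, 10.9%. For CCAAT these shares were 62.5% in windows of members that rose, 81.5% in those of members that did not pass, 63.5% in other mitosis genes and 56.4% in DNA replication genes. A match is a description of the letters and not a measured site.

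Mitosis and spindle genes were higher with DAPT. Of the 49 tested, 16 rose and none fell, a share of 32.7%, while over all 21477 genes tested 2.83% rose and 3.99% fell (6.82% in either direction). Of the 21477, 13998 were named genes, and the rest were probe accessions without a gene name, each counted as 1 gene. Anln, which encodes the contractile-ring protein anillin, rose most (3.14-fold), followed by Bub1b, Ccna2, Tacc3 and Top2a, each by more than 2-fold. The median change of the 49 members was 0.55 on the log2 scale (1.46-fold) against -0.06 over all genes, and 42 of the 49 lay above 0 (85.7%, against 43.3% of all genes). Changes are log2 fold changes of the ratio of sphere RNA to reference RNA, DAPT minus vehicle, ± SE from limma (n = 2 arrays each). Adjusted p-values are from Benjamini-Hochberg over the whole table of tested genes, and a gene passed below 0.05. Without 1 array the number that rose was 12 (DAPT replicate 1), 10 (DAPT replicate 2), 9 (vehicle replicate 1, with Tpx2 falling) or 20 (vehicle replicate 2).

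The count moved with several processing choices. Left out before background correction were 13 spots of the DAPT 2 array, with local backgrounds above 5 times the median there. With them kept no member passed in limma (22 were higher and 2 lower at an unadjusted p under 0.05), although the median change was 0.49. The signal of the sphere RNA alone, without the reference, gave 0 members that passed with limma and a median of 0.81. At an unadjusted p under 0.05, 29 of 49 were higher, where 6.29% of all genes were, and Cdc25b was lower. With median centring of each array in place of loess 26 rose, at a median of 0.77, while the median of all genes moved to 0.11. Taken relative to all genes the median of the members was 0.61 with loess, 0.66 with median centring, 0.79 with the scanner software's processed signals and 0.60 with scale normalization between arrays. In all of these settings no member fell.

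In DAPT spheres the normalized ratios of the members to the reference pool were close to 0 at the median, and in vehicle spheres most were below 0. The median log2 ratio of the 49 members was 0.07 and 0.12 on the DAPT arrays and -0.48 and -0.34 on the vehicle arrays. Here 0 means equal signal in both dyes after loess within the array, and not necessarily equal amounts of RNA. Above, below or level with the reference is meant in that sense throughout. Members below the reference numbered 21 and 19 with DAPT, against 44 and 39 with vehicle. In 36 of the 49 both DAPT arrays lay above both vehicle arrays, and in 3 both lay below, where 21.8% and 31.9% of all genes did so.

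**Figure D1:**
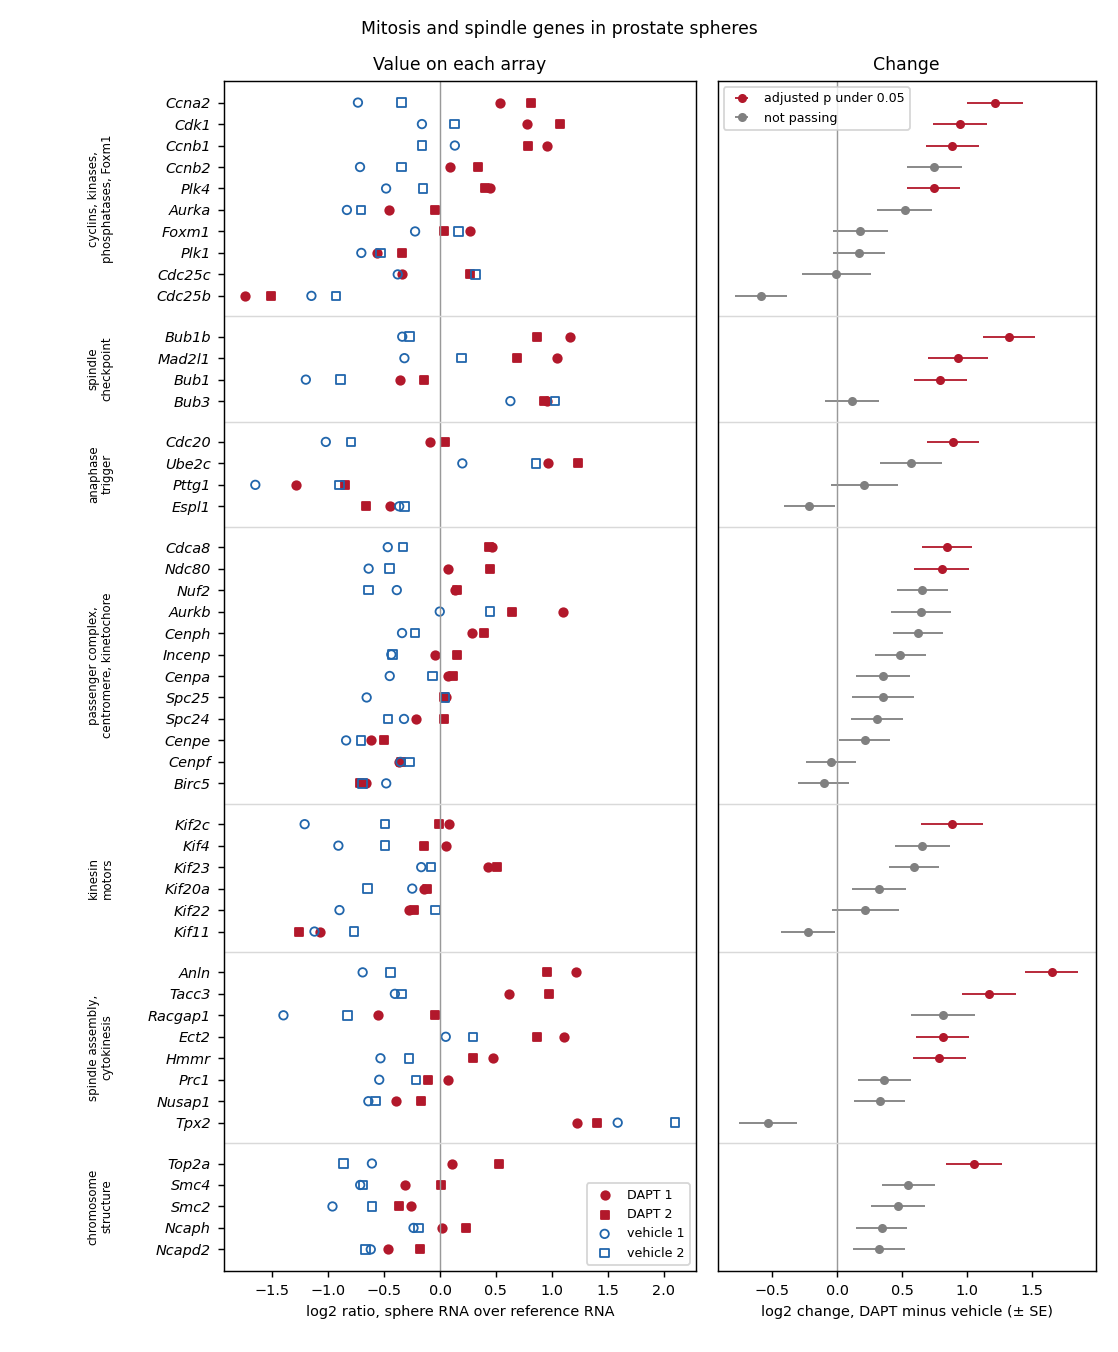
The left panel plots the log2 ratio of sphere RNA over reference RNA for the 49 tested members on each array (filled red, DAPT 1 and 2; open blue, vehicle 1 and 2), and the right panel the log2 change, DAPT minus vehicle, with bars of 1 SE from limma. Red bars mark the 16 members that rose (adjusted p under 0.05); Cdc25b and Tpx2 have the lowest changes, at -0.59 and -0.53.

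The groups differed in more than the treatment. The 4 arrays lay on 1 slide that was scanned once, the DAPT arrays at positions 2 and 1 and the vehicle arrays at positions 4 and 3, so that position and treatment cannot be told apart. The ratio of red signal to local background had a median of 2.84 and 2.40 on the DAPT arrays and of 1.95 and 1.83 on the vehicle arrays. The scanner software marked 49.6% and 50.9% of probe spots on the DAPT arrays and 11.5% and 29.2% on the vehicle arrays as non-uniform or outlying. Without marked spots only 6 members could be tested, of which Ect2 rose and all 6 lay above 0. The 8 basal markers lay well above the reference, with a median log2 ratio of 4.35 and 4.11 with DAPT and 4.22 and 3.86 with vehicle. Of these 1 fell, Krt15 (-1.08, adjusted p = 0.00799), named after its value was seen, and none rose. Their summed red signal was 148846 and 142905 with DAPT against 239135 and 140904 with vehicle. Over all genes tested 3.99% fell and 2.83% rose, the shares to set beside this count and the marker counts that follow. Of 11 fibroblast markers, genes of a cell type outside the sorted population, 8 fell with DAPT and none rose, and their summed normalized red signal was 13371 and 14476 with DAPT against 57496 and 44997 with vehicle. All of these but Lum were well above background in red on all 4 arrays. Of 9 luminal markers 2 fell, with summed red signals of 99518 and 101794 with DAPT and 186798 and 112335 with vehicle, and of 5 smooth muscle markers 1 fell, at 68882 and 76591 with DAPT and 69924 and 88649 with vehicle. No leukocyte marker passed in either direction among the 5 tested, and neither did the 2 endothelial markers tested. The part of these differences in the rise of the mitosis genes was not tested.

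Among the 10 cyclins, kinases, phosphatases and Foxm1, 4 rose and none fell, with a median change of 0.63. Ccna2 encodes cyclin A2, which drives late S phase and the entry into mitosis. Its log2 ratio was 0.54 and 0.81 with DAPT, against -0.73 and -0.35 with vehicle, so that it lay above the reference on both DAPT arrays and below it on both vehicle arrays. It rose by 1.21 ± 0.21 (2.32-fold, adjusted p = 0.00588) and passed without any 1 of the arrays. Ccnb1, the gene of cyclin B1, stood at 0.95 and 0.79 with DAPT and at 0.13 and -0.16 with vehicle and rose by 0.88 ± 0.20 (adjusted p = 0.0218). Other Ccnb1 probes differed by 1.66 and 1.19, the same way. Each was well above background in red on both DAPT arrays and 1 vehicle array. They passed the filter through the DAPT arrays alone, which leans towards a rise. Its call was lost without DAPT replicate 1 (adjusted p = 0.0642), without vehicle replicate 2 (adjusted p = 0.0774) and with the processed signals (adjusted p = 0.0810).

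Cdk1, the kinase that these cyclins activate, stood at 0.78 and 1.08 with DAPT and at -0.16 and 0.13 with vehicle. The groups did not overlap, and Cdk1 rose by 0.94 ± 0.21 (1.92-fold, adjusted p = 0.0185). Leaving out DAPT replicate 2 gave 0.79, which did not pass (adjusted p = 0.0812). Its other probe, well above background in red on both DAPT arrays and 1 vehicle array, differed by -0.10. Plk4, the kinase that starts centriole duplication, read 0.45 and 0.40 with DAPT and -0.48 and -0.15 with vehicle, a rise of 0.74 ± 0.20 (adjusted p = 0.0471). It is the member nearest to the threshold. The call was lost without DAPT replicate 1 (adjusted p = 0.108), DAPT replicate 2 (0.0978) or vehicle replicate 1 (0.150), and also with the processed signals (0.135), median centring (0.05996), scale normalization (0.0587) and no filter on dim probes (0.0513). The other Plk4 probe, well above background in red on both DAPT arrays and 1 vehicle array, differed by 0.77. Just outside the threshold lay Ccnb2, the cyclin B2 gene, at 0.75 ± 0.21 (adjusted p = 0.0537).

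The other regulators of mitotic entry did not pass. Plk1, the main Polo kinase, had log2 ratios of -0.56 and -0.34 with DAPT and -0.70 and -0.53 with vehicle, with overlapping groups and a change of 0.17 ± 0.20 (adjusted p = 0.659). Foxm1, the transcription factor that activates many of these genes, read 0.26 and 0.03 with DAPT against -0.22 and 0.16 with vehicle, again overlapping, with a change of 0.18 ± 0.21 (adjusted p = 0.665). Aurka, the spindle pole Aurora kinase, changed by 0.52 ± 0.21 (adjusted p = 0.160). Of the CDC25 phosphatases, which switch CDK1 on, Cdc25b had the lowest change of all members, with -1.74 and -1.51 on the DAPT arrays and -1.15 and -0.93 on the vehicle arrays. Both DAPT arrays lay lower, but the change of -0.59 ± 0.20 did not pass (adjusted p = 0.101), and the other Cdc25b probes differed by 0.10 and 0.43. Cdc25c was at -0.01 ± 0.27, and its other probe differed by 0.22.

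Of the 4 spindle checkpoint genes tested 3 rose, with a median change of 0.86 over the 4. Bub1b encodes BUBR1, the kinase-like protein that inhibits the anaphase-promoting complex. It stood at 1.16 and 0.87 with DAPT and at -0.34 and -0.27 with vehicle, on opposite sides of the reference. It rose by 1.32 ± 0.20 (2.50-fold, adjusted p = 0.00242) and passed without any 1 of the arrays. Mad2l1, the gene of the MAD2 inhibitor, read 1.05 and 0.69 with DAPT against -0.32 and 0.19 with vehicle, a rise of 0.93 ± 0.23 (adjusted p = 0.0302) that was lost without DAPT replicate 1 (adjusted p = 0.0933), without vehicle replicate 1 (0.102), with the processed signals (0.0585) and with scale normalization (0.0578).

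Bub1, the kinase that recruits other checkpoint proteins to the kinetochore, read -0.35 and -0.15 with DAPT against -1.20 and -0.89 with vehicle. It thus lay below the reference on every array, and less so with DAPT. It rose by 0.79 ± 0.21 (adjusted p = 0.0377), a call lost without DAPT replicate 2 (adjusted p = 0.155) and without vehicle replicate 1 (0.113). Bub3, the partner of both BUB proteins, did not pass at 0.11 ± 0.21, with overlapping groups. The untested Ttk probe differed by 0.29.

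In the group that triggers anaphase 1 of 4 rose. Cdc20, the activator of the anaphase-promoting complex that the checkpoint inhibits, had log2 ratios of -0.09 and 0.05 with DAPT and -1.02 and -0.80 with vehicle. With DAPT it was thus level with the reference, and with vehicle well below it. It rose by 0.89 ± 0.20 (1.85-fold, adjusted p = 0.0192). The call was lost without DAPT replicate 2 (0.82, adjusted p = 0.0670) and without vehicle replicate 1 (0.78, adjusted p = 0.0501). Ube2c, the ubiquitin-conjugating enzyme of the same complex, changed by 0.57 ± 0.24, Pttg1, which encodes securin, by 0.21 ± 0.26, and Espl1, the gene of separase, by -0.22 ± 0.20, and none of these passed.

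Of the 12 genes of the chromosomal passenger complex, the centromere and the kinetochore, 2 rose and 10 did not pass, although 10 of the 12 lay above 0 and their median was 0.42. Cdca8 encodes borealin, a passenger subunit. Its log2 ratio was 0.46 and 0.44 with DAPT against -0.47 and -0.33 with vehicle, without overlap. It rose by 0.85 ± 0.19 (adjusted p = 0.0214), and its other probe differed by 1.12. The call was lost without DAPT replicate 2 (adjusted p = 0.0516). Ndc80, the gene of the microtubule-binding kinetochore subunit HEC1, stood at 0.07 and 0.45 with DAPT and at -0.64 and -0.45 with vehicle and rose by 0.80 ± 0.21 (adjusted p = 0.0390), a call lost without DAPT replicate 2 (adjusted p = 0.224) and without vehicle replicate 1 (0.0856).

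The catalytic passenger subunit Aurkb had log2 ratios of 1.09 and 0.64 with DAPT, against -0.00 and 0.45 with vehicle, where its probe was well above background in red on 1 array. Both DAPT arrays were higher, by a margin smaller than the spread within either group, and the change of 0.65 ± 0.23 did not pass (adjusted p = 0.113). It did pass without DAPT replicate 2 (0.87, adjusted p = 0.0499) and without vehicle replicate 2 (0.87, adjusted p = 0.0439). Birc5, which encodes the passenger protein survivin, read -0.66 and -0.72 with DAPT and -0.48 and -0.69 with vehicle, overlapping, with a change of -0.10 ± 0.20 (adjusted p = 0.798). Incenp, the scaffold that holds both of them, was at 0.48 ± 0.20 (adjusted p = 0.157).

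The remaining NDC80 complex genes were Nuf2 at 0.66 ± 0.20 (adjusted p = 0.0678), Spc25 at 0.35 ± 0.24 and Spc24 at 0.30 ± 0.20. The Spc24 probe was well above background in red on both DAPT arrays and on neither vehicle array. Among the centromere proteins, Cenph lay at 0.62 ± 0.19 (adjusted p = 0.0758), the centromeric histone gene Cenpa at 0.35 ± 0.21, the kinetochore motor gene Cenpe at 0.21 ± 0.19 and Cenpf at -0.05 ± 0.19. None of these passed.

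Of 6 kinesin motors 1 rose. Kif2c encodes MCAK, which removes tubulin from microtubule ends at the centromere. It read 0.08 and -0.01 with DAPT against -1.21 and -0.49 with vehicle, with most of the spread between the vehicle arrays. Its rise of 0.88 ± 0.24 (adjusted p = 0.0459) was lost without DAPT replicate 1 (adjusted p = 0.0570) and with median centring (0.0621), and without vehicle replicate 1 it was 0.52 (adjusted p = 0.196). Kif4, a chromosome-arm motor, at 0.66 ± 0.21 (adjusted p = 0.0856) and Kif23, a motor of the central spindle, at 0.59 ± 0.19 (adjusted p = 0.0877) did not pass. Their other probes differed by 0.87 and 1.25. That of Kif4 was well above background in red on both DAPT arrays and 1 vehicle array. Kif20a and Kif22 were at 0.32 ± 0.21 and 0.22 ± 0.26, and Kif11, the motor that pushes the spindle poles apart, at -0.22 ± 0.21. The other Kif11 probe, well above background in red on both DAPT arrays and 1 vehicle array, differed the opposite way, by 0.28.

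Among the 8 genes of spindle assembly and cytokinesis 4 rose, with a median of 0.80. Anln stood at 1.22 and 0.95 with DAPT and at -0.69 and -0.44 with vehicle. This was the widest gap between the groups among the members, with a rise of 1.65 ± 0.20 (adjusted p = 0.000579), and its other probe differed by 1.55. Tacc3, which stabilises kinetochore microtubules, read 0.61 and 0.98 with DAPT against -0.40 and -0.34 with vehicle and rose by 1.17 ± 0.21 (2.25-fold, adjusted p = 0.00582). Both passed without any 1 of the arrays.

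Ect2, the exchange factor that activates RhoA at the division plane, stood at 1.11 and 0.86 with DAPT and at 0.05 and 0.30 with vehicle. It lay above the reference on every array, and further with DAPT. It rose by 0.81 ± 0.20 (adjusted p = 0.0331). The other Ect2 probe, well above background in red on the DAPT arrays alone, differed by 0.82. The call was lost without DAPT replicate 1 (adjusted p = 0.126) and without vehicle replicate 1 (0.0880), and also with median centring (0.57, adjusted p = 0.138), the processed signals (0.58, adjusted p = 0.319) and scale normalization (0.69, adjusted p = 0.0722). Hmmr, the gene of a spindle-associated hyaluronan receptor, read 0.47 and 0.29 with DAPT against -0.53 and -0.28 with vehicle, a rise of 0.79 ± 0.20 (adjusted p = 0.0361). This was lost without DAPT replicate 1 (adjusted p = 0.122) and without vehicle replicate 1 (0.101).

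Racgap1, the partner of Kif23 in the centralspindlin complex that recruits ECT2, was at 0.82 ± 0.25 (adjusted p = 0.0663). The midzone gene Prc1 at 0.36 ± 0.21 and Nusap1 at 0.33 ± 0.20 did not pass. Tpx2, the activator of Aurora A on the spindle, lay lower with DAPT on both arrays. Its log2 ratio was 1.22 and 1.40 with DAPT and 1.59 and 2.10 with vehicle, and its change of -0.53 ± 0.22 did not pass (adjusted p = 0.167), though it did without vehicle replicate 1 (-0.79, adjusted p = 0.0480).

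Of the 5 genes of chromosome structure tested 1 rose, and all 5 had both DAPT arrays above both vehicle arrays, where 21.8% of all genes did. Top2a, the topoisomerase that untangles sister chromatids, had log2 ratios of 0.11 and 0.53 with DAPT and -0.61 and -0.86 with vehicle. It rose by 1.05 ± 0.22 (2.07-fold, adjusted p = 0.0125), and its other probe differed by 0.49. Leaving out DAPT replicate 2 gave 0.84, which did not pass (adjusted p = 0.0590). The condensin genes Smc4 at 0.55 ± 0.20, Smc2 at 0.47 ± 0.21, Ncaph at 0.34 ± 0.20 and Ncapd2 at 0.32 ± 0.20 did not pass. The Smc2 value is that of its brightest probe, and the 3 other Smc2 probes differed by 0.92, 0.98 and 0.94.

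Other probes served as a second measurement. Among tested members 18 had 23 further probes, of which 18 had the sign of the brightest probe and 5 the opposite one. For the 7 members that rose and had further probes, 7 of 8 had the same sign, and the exception was that of Cdk1. Of these 8 probes 3 were well above background in red on all 4 arrays, those of Cdca8, Anln and Top2a. Both further Ccnb1 probes and those of Cdk1 and Plk4 were so on both DAPT arrays and 1 vehicle array, and that of Ect2 on the DAPT arrays alone. In the test of every probe on its own, 27 of 70 member probes rose and none fell. Of all 27301 probes 860 rose (3.15%) and 1016 fell (3.72%). Some member probes passed the filter on dim probes through the DAPT arrays alone, among them the further probes of Ccnb1, Cdk1, Plk4 and Ect2. Probes kept in that way lean towards a rise, so this count is no independent second measurement.

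A rise in ratio can lie in the sphere RNA, in the reference RNA or in both, so each dye was looked at on its own. After loess and Aquantile normalization, the median change of the 49 members in red was 0.81 and in green 0.17, against -0.04 and 0.04 over all genes. In red 42 of the 49 lay above 0, as 46.6% of all genes did, and in green 18 of the 49 lay below 0, as 46.1% did. Red signals on both DAPT arrays were above both vehicle arrays in 36 of the 49, where 21.5% of all genes did so. This held for all 16 members that rose, which were picked by a ratio that contains the red signal. Their red change ranged from 0.41 to 1.93 and was at least as large as the ratio change in 9 of 16. In red alone the smallest adjusted p of a member was 0.184 (limma). At an unadjusted p under 0.05, 29 of the 49 were higher in red, where 6.29% of all genes were, and Cdc25b was lower.

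Tacc3 and Cdc20 had the largest red changes among the 16 members that rose. Log2 red signal of Tacc3 was 10.05 and 10.27 with DAPT and 8.23 and 8.24 with vehicle, and that of Cdc20 was 11.20 and 11.54 with DAPT against 10.00 and 9.66 with vehicle. Their green signals were higher on the DAPT arrays as well, by 0.76 and 0.65, so that the ratio shows less than the red signal. For Cdk1 the red signal was 9.21 and 9.67 with DAPT and 8.21 and 8.75 with vehicle, while green differed by 0.02. Its change in ratio thus lay almost entirely in the red channel.

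In 4 of the 16 the reference signal was lower on both DAPT arrays, little above the share of all genes (18.4%). In 6 of the 16 it was higher on both, for which no share of all genes was counted. The 4 with a lower reference signal are given first. Anln changed by 1.12 in red and by -0.53 in green, Bub1b by 0.77 and -0.55, Ccna2 by 0.83 and -0.39 and Ndc80 by 0.41 and -0.39. Part of these ratio changes thus lay in the reference channel, although one commercial reference RNA was used throughout. Just outside the threshold, Ccnb2 changed by 0.17 in red and -0.58 in green and Racgap1 by 0.09 and -0.73, but the groups overlapped in both dyes. Among other members that did not pass, several had a red rise with a green rise beside it. Foxm1 changed by 0.72 in red and 0.54 in green, Kif20a by 1.16 and 0.84, Aurka by 1.09 and 0.57 and Pttg1 by 0.98 and 0.77. Plk1 changed by -0.23 in red and -0.40 in green, and Cdc25b by -1.63 and -1.05.

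**Figure D2:**
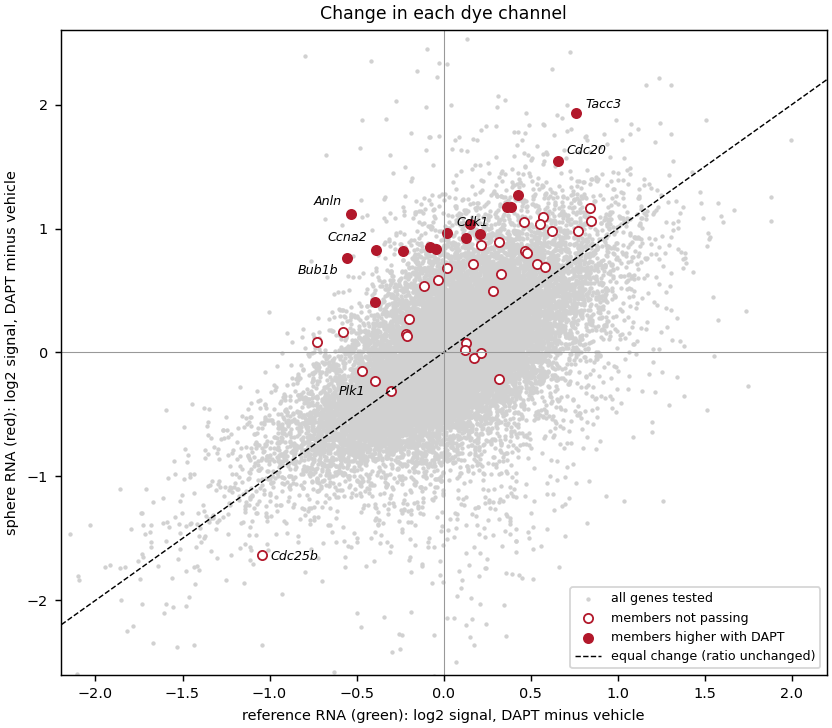
For each gene the log2 signal difference, DAPT minus vehicle, in the reference channel (green, x axis) is set against that in the sphere RNA channel (red, y axis), after loess and Aquantile normalization. Grey dots are all 21477 genes tested, filled red circles the 16 members that rose and open circles the 33 that did not pass. On the dashed line the ratio is unchanged, and the filled circles lie above it at red changes of 0.41 to 1.93.

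Further mitosis genes, a list of 105 drawn up besides the members, also lay higher at the median. The difference from the members was not tested. Of the 87 tested 10 rose (11.5%, where 2.83% of all genes did), none fell, and the median was 0.30. Haus6, a subunit of the augmin complex that branches spindle microtubules, stood at 1.17 and 1.06 with DAPT and at -0.09 and -0.15 with vehicle and rose by 1.24 ± 0.19 (adjusted p = 0.0028). Esco2, a cohesin acetyltransferase gene, rose by 1.20 and Mybl2, which encodes B-MYB, by 0.96. E2f4, a repressive partner of the DREAM complex, rose by 0.98, the kinetochore genes Zwint and Ska1 by 0.93 and 0.88, and the anaphase-promoting complex subunit gene Cdc27 by 0.82. The kinase genes Pbk and Melk rose by 0.99 and 0.81, and Depdc1a by 0.95. Pbk had no value on DAPT 2, so its DAPT arm was 1 array, which limma takes to vary like the vehicle arrays. Mki67, the usual marker of dividing cells, had no named probe.

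DNA replication genes were higher as well. Of 52 tested 15 rose (28.8%) and none fell, with a median of 0.58. Prim2, a primase subunit gene, rose by 1.25 ± 0.21, Pole2 of DNA polymerase epsilon by 1.14 ± 0.20, the helicase gene Mcm3 by 1.16 ± 0.20 and Uhrf1, which maintains DNA methylation, by 1.12 ± 0.21. Whether the mitosis members differed from the replication genes was not tested.

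**Figure D3:**
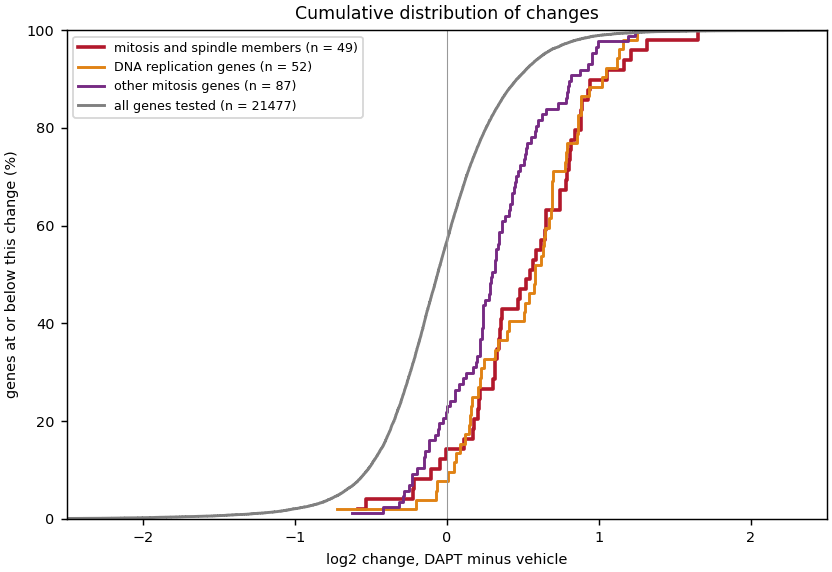
The curves give the percent of genes (y axis) at or below each log2 change, DAPT minus vehicle (x axis), for the 49 mitosis and spindle members, 52 DNA replication genes, 87 other mitosis genes and all 21477 genes tested. The medians are 0.55, 0.58, 0.30 and -0.06.

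The calls were not equally firm. Anln, Bub1b, Ccna2 and Tacc3 passed in all 4 fits that left out 1 array, and the other 12 members that rose lost their call in at least 1 of these. The log2 change of each of the 16 stayed above 0 under every setting in which it had a value. The scanner software marked spots of Anln, Bub1b and Ccna2 on all 4 arrays and of Tacc3 on 3. None of these could therefore be tested without marked spots. Of the 16 members that rose, 4 were marked on all 4 arrays and 1, Ect2, on none.

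**Figure D4:**
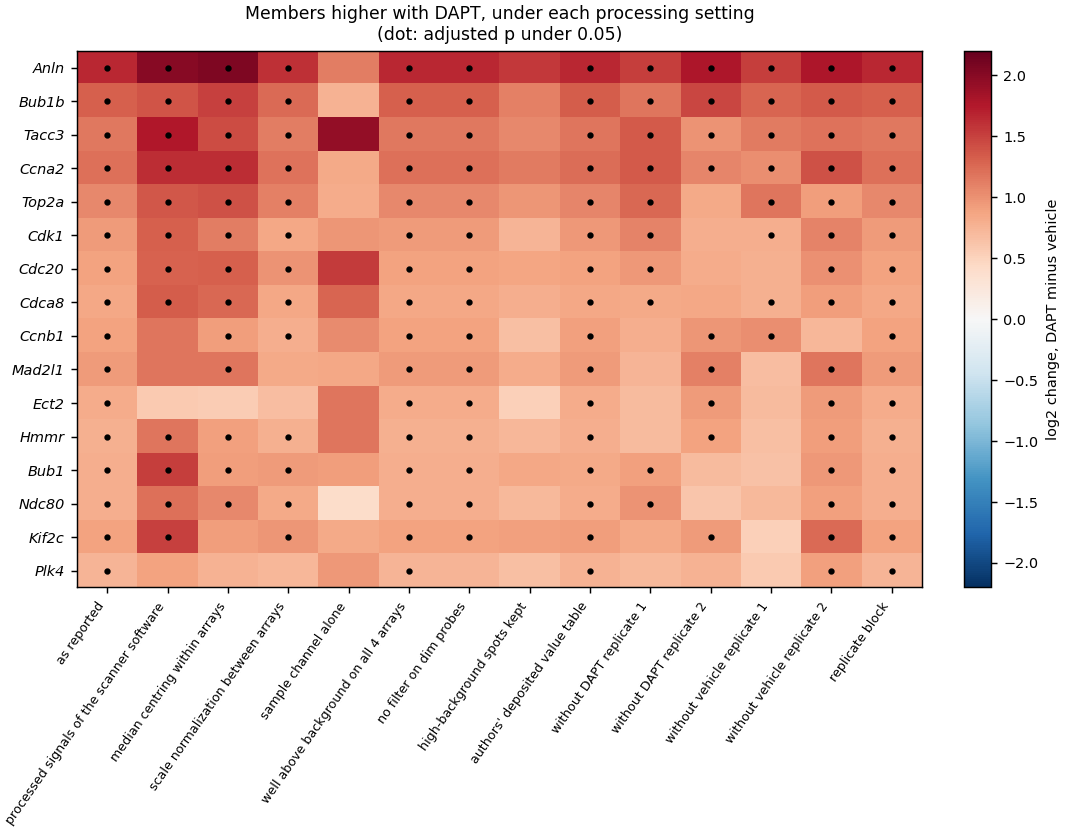
Rows are the 16 members that rose, ordered by adjusted p, and columns are the processing settings, with the values given above at the left and the removal of marked spots not drawn. Colour gives the log2 change, DAPT minus vehicle, and a dot marks an adjusted p under 0.05. Anln, Bub1b, Tacc3 and Ccna2 have dots in all columns but the sample channel alone and the high-background spots kept, where no member has one.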

How the data were processed

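RNA of DAPT- and vehicle-treated spheres was measured on 4 arrays with 2 colours, sphere RNA in Alexa Fluor 647 (red) and reference RNA in Alexa Fluor 555 (green), from 2.5 µg of total RNA per the labels, with no dye swap. Agilent Feature Extraction 10.7.3.1 made the scanner files, per the file headers. The median spot and local background intensity values used here are uncorrected scanner output, and the processed intensity values were background-subtracted and dye-normalized by that software, per the file headers. The deposited log10 ratio of each file served to check the direction of the authors' deposited value table of log2 values, for which the sources used here state no normalization. The table's columns correlated at 0.869 to 0.902 with the scanner's log ratios and at 0.9998 to 0.9999 with those computed here, and had medians of -0.015, -0.011, 0.00072 and -0.011.

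Background was corrected with limma 3.58.1 in R 4.3.3 (normexp, offset 50, high-background spots left out) and loess was fitted within arrays with control spots at weight 0. Replicate spots were averaged. Probes had to stand well above background in red on both DAPT or both vehicle arrays, and each gene was represented by its brightest such probe. All 16 members that rose were so on all 4 arrays, and no probe spot was saturated. Of 41174 probes 24375 were named (GRCm38.p6 RefSeq accessions). Groups were compared with lmFit and eBayes, two-sided, with 2 residual degrees of freedom and 10.5 from eBayes. The fitting step was tested on simulated data. The precision is limited by the number of arrays. The members, lists and tests were chosen with earlier results of these data known. All 16 members past the threshold, 7 central regulators, the lowest member and the leading member of each function are given with their values.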

Additional observations from a re-analysis of the deposited data

How the results depend on the processing

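The comparison was repeated under 14 alternatives on the tested members and with every probe on its own. Of the 641 values for single members, 65 lost and 27 gained a call and none that had passed changed sign. The authors' deposited value table, the 2 other filters on dim probes and scale normalization kept the members' count within 1.5 times of 16 (14 to 17), as did the processed signals (12). With median centring 26 members rose, without marked spots 1 of 6, and with the sample channel alone or the high-background spots kept 0. With every probe on its own the count was 27, which is a count of probes, with several probes for some genes. Without 1 array 9 to 20 rose and 0 to 1 fell, with a median of 0.45 to 0.64, and such fits assume that a lone array varies like the other group. The members' median was 0.89 with the processed signals, 0.77 after median centring and 0.81 when only the sample channel was used. Over all genes 607 rose and 858 fell (41.4% of calls higher). The counts were 286 and 337 with processed signals, 1216 and 527 with median centring (69.8%), 369 and 974 with scale normalization (27.5%), 318 and 211 without marked spots (60.1%), 0 and 1 in the sample channel (2618 at an unadjusted p under 0.05), 4 and 83 with high-background spots kept (4.6%; 2347 at that p), and 446 to 788 and 670 to 1037 without 1 array. The median of all genes was -0.06 as reported, 0.09 with processed signals and 0.11 with median centring. The causes of these shifts were not tested, except that fewer genes could be tested without marked spots (6930). Shared replicate numbers did not mark a stated pairing, and deviations of same-numbered arrays correlated at 0.086. With the replicate block 18 members rose and 0 fell, and over all genes 874 rose and 1184 fell. Slide and scan could not be blocked, since there was 1 of each.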
